A study of Mus musculus with 6 samples.

Results

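The genes described are 3 neuregulins (Nrg1, Nrg2 and Nrg4), 3 ligands of the epidermal growth factor (EGF) type (Hbegf, Areg and Ereg) and the 4 ErbB receptors (Egfr, Erbb2, Erbb3 and Erbb4). Their probe sets were taken by gene symbol, as every probe set annotated to exactly 1 of these 10 symbols, whatever its values. The list of genes itself was chosen with earlier results of these data known. Of the 10 genes, 9 were measured, by 20 probe sets out of the 34945 that name a single gene and by 9 out of the 18193 genes these cover. Areg, which encodes amphiregulin, has no probe set of its own among them and is not analysed here.

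Expression was measured on Affymetrix arrays in whole cardiac ventricles of 3 CTRL and 3 OE mice, 1 array per sample. CTRL mice carried Myh6-MCM, a tamoxifen-inducible Cre recombinase driven by the cardiomyocyte promoter Myh6. OE mice carried the same Cre and CAG-S-COUP-TFII, an allele from which the Cre switches on the nuclear receptor COUP-TFII, so the overexpression was directed to cardiomyocytes while the RNA came from all cells of the ventricle. All mice of both groups were of a 129SvEv/C57Bl6/J mixed strain, were male as far as the methods state a general rule, and received tamoxifen at 40 mg/kg/day for 3 days from 2 months of age, and the ventricles were taken 16 days after the first dose. The labels give the age of both groups as 2.5 months, whereas the array methods give 2 months. The comparison asks which transcripts differ in the adult ventricle when COUP-TFII is raised in its cardiomyocytes. The array methods give 3 mice per genotype, so the arrays of a group are taken as separate animals.

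ErbB receptors are tyrosine kinases of the cell surface that act in pairs. Neuregulins bind ErbB3 and ErbB4, EGF-type ligands bind EGFR or, for some of them, EGFR and ErbB4, and ErbB2 has no known ligand and serves as the partner of the others. Most ligands are made as membrane-bound precursors that proteases release. In the heart, neuregulin-1 from the endothelium acts on ErbB4 and ErbB2 of cardiomyocytes, a signal needed for trabeculation of the embryonic ventricle and for upkeep of the adult one.

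The deposited values, taken here as log2, are centred on the median of the 6 arrays for each probe set. A value therefore says how far an array lay above or below that median, and no gene's level, nor a comparison of levels between genes, can be had from it. A log2 change below is the OE mean minus the CTRL mean, over the mean of a gene's probe sets. Calls were made with limma at a Benjamini-Hochberg adjusted p under 0.05 over all genes, and each 95% interval is for its gene alone. In bulk ventricle, fewer cells of a type and less RNA per cell cannot be told apart.

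The libraries followed their labels at the COUP-TFII gene. The probe set 1416159_at of Nr2f2, which encodes COUP-TFII, read −1.99, −1.60 and −1.65 in the CTRL arrays and 1.72, 1.60 and 1.92 in the OE arrays, a log2 change of 3.49, while the changes of the other probe sets of the gene ran from −0.34 to −0.13. Arrays of the same group lay 0.194 to 0.233 apart (root mean square over genes), arrays of different groups 0.375 to 0.427, and no array stood apart from its group. Of all genes, limma called 14.9% higher and 11.8% lower in OE, and the median gene changed by −0.03. When the arrays were centred on 42 measured genes of cytosolic ribosomal proteins instead, every change moved down by 0.21 and the median of all genes became −0.25.

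Of the 9 measured genes, 1 was called higher in OE ventricles, Ereg, and none was called lower. The other 8 did not pass the test, and their changes lay between −0.19 and 0.24. With 14.9% of all genes called higher, the single call is near the share over the whole array. The median change of the 9 genes was −0.01, beside −0.03 for all genes, and on the ribosomal scale these became −0.22 and −0.25. At an unadjusted p under 0.05 limma gave 1 gene higher, Ereg, and 1 lower, Nrg2. In 1 gene, Ereg, all OE arrays lay above all CTRL arrays, as in 22.0% of all genes, and in 1, Nrg2, all lay below, as in 23.6% of all genes. The groups overlapped in the other 7.

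**Figure D1:**
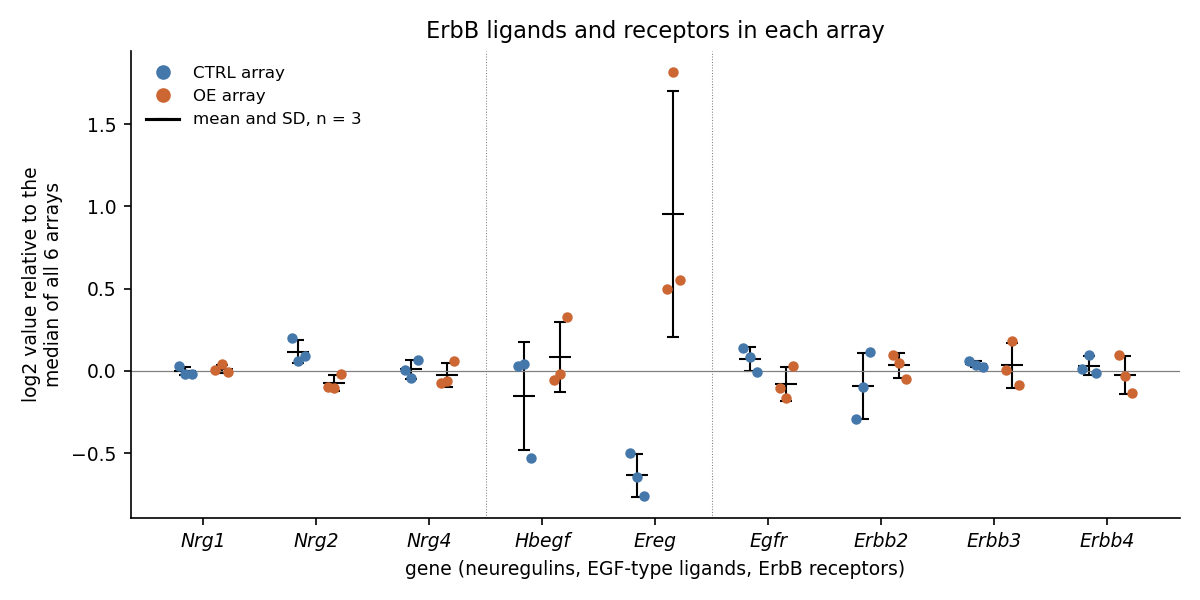
The log2 value of each of the 9 measured genes relative to the median of all 6 arrays, 1 point per array, with the mean and SD of the 3 CTRL and the 3 OE arrays. The OE arrays of Ereg lie at 0.50, 1.82 and 0.55 above CTRL arrays at −0.76 to −0.50, and the points of the other genes lie between −0.53 and 0.33.

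Ereg encodes epiregulin, a ligand of EGFR and ErbB4 that is low in most healthy adult tissues and made by macrophages, smooth muscle and epithelia among other cells. Its single probe set, 1419431_at, read −0.50, −0.65 and −0.76 in the CTRL arrays and 0.50, 1.82 and 0.55 in the OE arrays. All OE arrays were above all CTRL arrays, and OE 2 stood higher than the other OE arrays. The mean was −0.63 ± 0.13 in CTRL and 0.96 ± 0.75 in OE (SD, n = 3 each). The log2 change was 1.59 ± 0.32 (SE), a 3.01-fold rise with an interval from 1.80 to 5.02 and a limma adjusted p of 0.0102, the rise ranked 79 among the 18193 genes. Without OE 2 the change was 1.16 with an adjusted p of 0.00127. One-way analysis of variance, the test the methods name, gave it an adjusted p of 0.0885, which is not a call.

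Ereg lies on chromosome 5 in the order Epgn, Ereg, Areg, Btc, all of them genes of EGF-type ligands, in the RefSeq annotation of the mouse. Epgn, the gene of epigen, changed by −0.33 (interval −0.71 to 0.05, limma adjusted p 0.171), and Btc, the gene of betacellulin, by −0.09 (interval −0.30 to 0.12, adjusted p 0.473). Of the 3 ligand genes of this cluster that were measured, Ereg was the one that passed the test. Among the other measured genes from Cxcl15 to G3bp2, Mthfd2l at 0.39 (adjusted p 0.020), Cxcl1 at 0.50 (adjusted p 0.0398) and Cdkl2 at 0.49 (adjusted p 0.00674) were called higher. So were Rchy1 at 0.28 (adjusted p 0.0169) and G3bp2 at 0.28 (adjusted p 0.018), beside 14.9% of all genes. Cxcl15 at −0.13 (adjusted p 0.253), Cxcl2 at −0.14 (adjusted p 0.21) and Parm1 at 0.07 (adjusted p 0.67) were not called. All these neighbours were picked for mention after their values were seen. The genes whose 6 values lay nearest to those of Ereg were Grhl1, at a root mean square distance of 0.248, Tubb2b at 0.348 and Meox1 at 0.351, against a median distance of 0.939 over all genes. Each of these nearest genes was also highest in OE 2, where Grhl1 read 1.48, Tubb2b 1.22 and Meox1 1.05. Choosing genes by their distance to Ereg, itself highest in OE 2, favours such a peak, so it is no separate result.

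Hbegf encodes heparin-binding EGF-like growth factor, a ligand of EGFR and ErbB4. It read 0.03, 0.04 and −0.53 in the CTRL arrays and −0.06, −0.02 and 0.33 in the OE arrays. CTRL 3 was far below the other CTRL arrays, OE 3 was the highest of all, and the groups overlapped. Hbegf thus had a log2 change of 0.24 ± 0.17 (SE), with an interval from −0.16 to 0.64 and a limma adjusted p of 0.333, and of 0.05 without CTRL 3. Both probe sets had positive changes, 0.28 for 1418349_at (adjusted p over probe sets 0.212) and 0.20 for 1418350_at (adjusted p 0.497). A rise of up to 1.56-fold or a fall of up to 1.12-fold lay inside the interval.

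Nrg1 encodes neuregulin-1. Its probe set, 1456524_at, read 0.03, −0.02 and −0.02 in the CTRL arrays and 0.01, 0.04 and −0.01 in the OE arrays. The arrays of the groups were interleaved, and the whole range over the 6 arrays was 0.06 on the log2 scale, which 0.0858% of probe sets fell below. The log2 change was 0.01 ± 0.06 (SE), with a limma adjusted p of 0.881, and its interval from −0.13 to 0.16 left room for a rise of up to 1.12-fold or a fall of up to 1.09-fold. Since the values hold no level, they do not show whether this probe set registered the Nrg1 transcript in the ventricle. On the ribosomal scale the change turned to −0.20, with an adjusted p of 0.042, close to the −0.25 of the median gene on that scale.

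Nrg2 encodes neuregulin-2, a ligand of ErbB3 and ErbB4. Over its 3 probe sets the gene read 0.20, 0.06 and 0.09 in the CTRL arrays and −0.10, −0.10 and −0.02 in the OE arrays. Every OE array was below every CTRL array, by a narrow margin. The log2 change was −0.19 ± 0.07 (SE), with an interval from −0.35 to −0.03, and the limma adjusted p of 0.0816 did not pass the threshold.

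The change in Nrg2 rested mostly on 1 of its probe sets. The probe set 1444491_at read 0.23, 0.31 and 0.03 in the CTRL arrays and −0.19, −0.03 and −0.25 in the OE arrays. It was called lower with a log2 change of −0.34 (interval −0.59 to −0.10, limma adjusted p over probe sets 0.0467), where 10.4% of all probe sets were called lower. The change of both 1447654_at and 1457283_at was −0.11, with adjusted p of 0.38 and 0.629, and in both the groups overlapped. The call of 1444491_at was lost with arrays centred on their medians (adjusted p 0.0533), with analysis of variance (0.122) and without CTRL 1, CTRL 2, OE 1 or OE 3 (0.119 to 0.129).

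Nrg4 encodes neuregulin-4, a ligand of ErbB4 best known from brown fat. Over 2 probe sets it read 0.01, −0.05 and 0.07 in the CTRL arrays and −0.08, −0.06 and 0.06 in the OE arrays. The groups overlapped throughout. Nrg4 changed by −0.03 ± 0.07 (SE) on the log2 scale, with an interval from −0.20 to 0.13 and a limma adjusted p of 0.754.

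**Figure D2:**
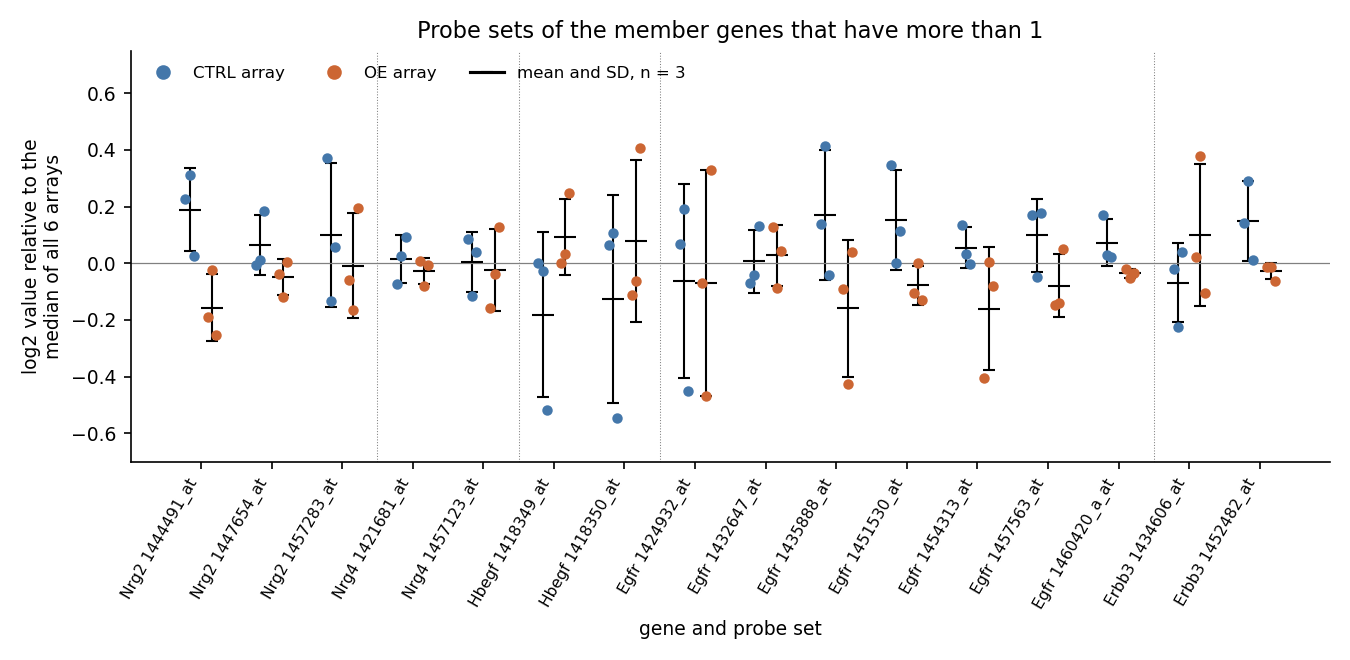
The log2 value of each probe set of Nrg2, Nrg4, Hbegf, Egfr and Erbb3, the member genes with more than 1 probe set, 1 point per array, and bars for the group mean and SD (n = 3). In 1444491_at of Nrg2 the CTRL arrays lie at 0.03 to 0.31 and the OE arrays at −0.25 to −0.03, and the probe sets of Erbb3 moved in opposite directions.

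None of the receptor genes was called in either direction by limma, and none had an unadjusted p under 0.05. Egfr, the receptor of EGF, Ereg, Hbegf and Areg, read 0.14, 0.08 and −0.01 in the CTRL arrays and −0.10, −0.17 and 0.03 in the OE arrays, over 7 probe sets. CTRL 3 lay below OE 3, so the groups overlapped. Egfr changed by −0.15 ± 0.08 (SE) on the log2 scale, with an interval from −0.33 to 0.03 and a limma adjusted p of 0.194. Of its 7 probe sets 6 had a negative change, the range was −0.33 to 0.02, and the limma adjusted p over probe sets ran from 0.149 to 0.985. In 2 of the 7, 1451530_at and 1460420_a_at, all OE arrays were below all CTRL arrays, as in 21.8% of all probe sets.

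Erbb2 encodes the partner receptor that binds no ligand. It read −0.29, −0.10 and 0.11 in the CTRL arrays and 0.10, 0.05 and −0.05 in the OE arrays. The CTRL arrays were spread more widely than the OE arrays and spanned all of them. The log2 change was 0.12 ± 0.11 (SE), with an interval from −0.12 to 0.37 and a limma adjusted p of 0.421, and it turned to −0.09 on the ribosomal scale.

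Erbb3 encodes a receptor with little kinase activity of its own. Its mean over 2 probe sets was 0.06, 0.03 and 0.03 in the CTRL arrays and 0.00, 0.18 and −0.08 in the OE arrays. The probe sets differed in sign. For 1434606_at the log2 change was 0.17 (adjusted p over probe sets 0.409), and for 1452482_at, in which all OE arrays were below all CTRL arrays, it was −0.18 (adjusted p 0.199). Their mean change of −0.01 ± 0.08 (SE; interval −0.20 to 0.18, limma adjusted p 0.966) is thus an average of opposite values.

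Erbb4 encodes the main neuregulin receptor of cardiomyocytes. Its probe set, 1427783_at, read 0.01, 0.10 and −0.01 in the CTRL arrays and 0.10, −0.03 and −0.13 in the OE arrays. OE 1 was at the top of the range and OE 3 at the bottom, and the groups overlapped. Erbb4 changed by −0.06 ± 0.08 (SE) on the log2 scale, with an interval from −0.24 to 0.13 and a limma adjusted p of 0.635. For the gene values of Nrg1, Nrg4, Erbb3 and Erbb4 the intervals thus lay between −0.24 and 0.18. These are changes of at most 1.18-fold downward and 1.14-fold upward. For Erbb3 the limit is that of the mean only, since the intervals of its probe sets reached −0.39 in 1452482_at and 0.48 in 1434606_at. For Nrg1 the limit applies to the transcript only if the probe set registered it.

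**Figure D3:**
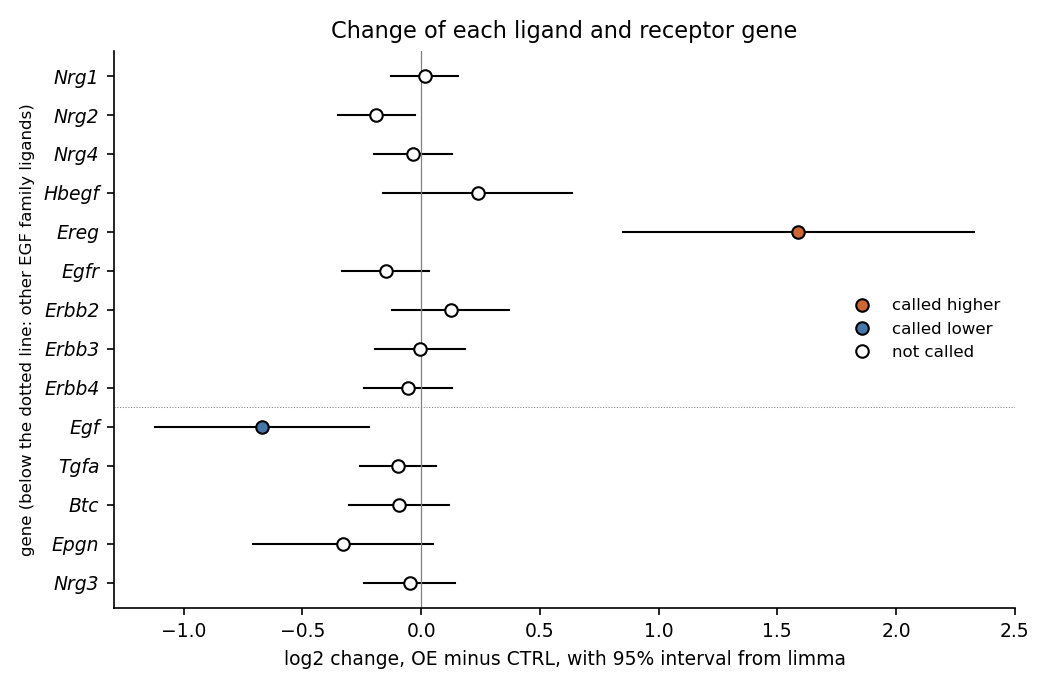
The log2 change of each member gene, OE minus CTRL, with its 95% interval from limma (n = 3 per group), and below the dotted line that of the other EGF family ligands. Ereg lies at 1.59 and is called higher, Egf lies at −0.67 and is called lower, and the open points mark the genes that did not pass the test.

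Over the 20 probe sets, 1 was called higher, that of Ereg, where 13.9% of all probe sets were called higher, and 1 was called lower, that of Nrg2. The changes were negative in 13. All OE arrays lay above all CTRL arrays in 2 of the 20, beside 21.1% of all probe sets, and below in 4, beside 21.8% of all probe sets, and the groups overlapped in 14. On the ribosomal scale 5 of the 9 genes, Nrg1, Nrg2, Nrg4, Egfr and Erbb4, were called lower, with changes of −0.20 to −0.40, and on that scale 50.1% of all genes were called lower. Apart from that scale, the lowest adjusted p of any gene other than Ereg and Nrg2 was 0.12 over the settings tried.

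The other ligands of the family comprise Egf, Tgfa, Btc, Epgn and Nrg3, all of them measured. Of these, 1 was called lower, Egf, where 11.8% of all genes were, and none was called higher by limma or at an unadjusted p under 0.05. Egf, the gene of epidermal growth factor itself, read 0.16, 0.55 and 0.06 in the CTRL arrays and −0.06, −0.40 and −0.79 in the OE arrays. Every OE array was below every CTRL array. The log2 change was −0.67 ± 0.19 (SE), a 1.59-fold fall with a limma adjusted p of 0.0385. The call was lost with analysis of variance (adjusted p 0.159) and without CTRL 1, CTRL 2, OE 2 or OE 3 (0.0757 to 0.11). Tgfa, which encodes transforming growth factor alpha, changed by −0.10 (adjusted p 0.319). Ereg, called higher, and Egf, called lower, are both ligand genes of Egfr, which was not called.

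Sheddases cut the ligand precursors, and their list here also holds cofactors and regulators that do not cut. Of 14 listed, 13 were measured, 4 were called higher by limma and 1 lower, beside 14.9% and 11.8% of all genes, and the median change was 0.18, which became −0.03 on the ribosomal scale. Adam9, a metalloprotease that can cut the precursor of HB-EGF, read −0.38, −0.60 and −0.33 in CTRL and 0.40, 0.39 and 0.33 in OE, a log2 change of 0.81 (adjusted p 0.000807). The change was 0.68 for Bace2, which encodes an aspartyl protease related to the neuregulin-cutting enzyme BACE1 (adjusted p 0.00122), and 0.67 for Adam19, which encodes a metalloprotease that can cut neuregulins (adjusted p 0.0454). The Adam19 call was lost on the ribosomal scale (adjusted p 0.0873), with analysis of variance (0.173) and when any array but CTRL 1 was left out. Rhbdf1, which encodes a partner of ADAM17, changed by 0.58 (adjusted p 0.00949), a call lost with analysis of variance (0.0665). Rhbdf2, the gene of a related partner, was the one called lower, at −0.24 (adjusted p 0.0424), a call lost when any array was left out, and Adam17, the gene of the main protease for several EGF-type precursors, changed by 0.00 (interval −0.21 to 0.22, adjusted p 0.987). Both of these were picked for mention after their values were seen. Among those not called, Adam15 changed by −0.19 (adjusted p 0.0893) and Cd9 by 0.18 (adjusted p 0.176).

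Of 31 listed adaptors and kinases that carry the signal onward, 25 were measured, 2 were called higher and 7 lower, beside 14.9% and 11.8% of all genes, with a median of −0.09. On the ribosomal scale 0 were called higher and 15 lower, where 50.1% of all genes were called lower. The 7 became 3 without CTRL 2, OE 1 or OE 3, and 4 without CTRL 1, CTRL 3 or OE 2 or with the replicate number as a block. Pik3r1, the gene of a regulatory subunit of PI3-kinase, read 0.28, 0.67 and 0.27 in CTRL and −0.46, −0.98 and −0.18 in OE, a log2 change of −0.94 (limma adjusted p 0.0129). The Pik3r1 call was lost with analysis of variance (adjusted p 0.0941). The transcription factor gene Stat5a changed by −0.70 (adjusted p 0.00122) and the docking protein gene Gab1 by −0.57 (adjusted p 0.00351). Map2k1, the gene of the kinase MEK1, rose by 0.44 (adjusted p 0.00792), a call lost on the ribosomal scale (adjusted p 0.0682). The other gene called higher, Nras, was picked for mention after its values were seen, changed by 0.23 (adjusted p 0.0494). Its call was lost without any 1 array (adjusted p 0.0622 to 0.135), with array weights (0.0509) and with analysis of variance (0.0752), and on the ribosomal scale its change was 0.02. Pik3ca at −0.21 (adjusted p 0.060) and Sos1 at −0.20 (adjusted p 0.0676) were nearest to the threshold among those not called.

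All 15 listed attenuators of ErbB signalling were measured, and 0 were called higher and 1 lower, beside 14.9% and 11.8% of all genes. The 1 was Sh3kbp1, the gene of a CBL-binding adaptor in receptor uptake, which changed by −0.76 (limma adjusted p 0.00674). Its call was lost with analysis of variance (adjusted p 0.0633). Errfi1, which encodes the ErbB inhibitor MIG6, read −0.06, −0.12 and −0.69 in CTRL and 0.63, 0.28 and 0.06 in OE, so that its groups did not overlap. Its log2 change of 0.62 had an adjusted p of 0.0524 and was not called, nor was it with analysis of variance (0.185) or on the ribosomal scale (0.112). Other settings called Errfi1 higher: array weights (limma adjusted p 0.0416), the replicate block (0.0101), centring on array medians (0.0496) and leaving out OE 3 (0.0491). So did omitting probe sets ending in _x_at or _s_at (0.035) and taking the probe set of largest variance (0.0323). Socs3, the gene of a cytokine signalling inhibitor, changed by 0.73 (limma adjusted p 0.0761). It was called higher when probe sets ending in _x_at or _s_at were omitted (0.0342), without CTRL 3 (0.0411) and without OE 1 (0.0488). Of 4 listed chaperone genes of ErbB2, 3 were measured and limma called none, with 1 higher at an unadjusted p under 0.05. Cdc37 changed by 0.23 (limma adjusted p 0.0507) and Hsp90aa1 by 0.19 (0.191). Cdc37 was called higher with array weights (0.0434) and centring on array medians (0.0437). With the probe set of largest variance both were called higher, Cdc37 at 0.47 (0.0103) and Hsp90aa1 at 0.50 (0.0287).

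Genes that ERK, a kinase downstream of ErbB and of many other receptors, switches on as targets or as feedback inhibitors had the highest median change of the 6 pathway lists, 0.42. Of 17 listed, 16 were measured, 8 were called higher by limma and none lower, with 1 lower at an unadjusted p under 0.05, beside 14.9% of all genes called higher. Dusp4, the gene of a phosphatase that switches off ERK, read −0.51, −0.48 and −0.42 in CTRL and 0.75, 0.42 and 1.48 in OE, a log2 change of 1.35 (limma adjusted p 0.00579). Ier3, an immediate early gene, changed by 1.32 (adjusted p 0.0303), the transcription factor gene Etv5 by 1.25 (adjusted p 0.00111) and Fos by 0.82 (adjusted p 0.0156). The call of Ier3 was lost when any array but CTRL 3 was left out, and that of Fos without OE 1. The remaining genes called higher, Dusp5, Dusp6, Spry1 and Spred1, changed by 0.35 to 0.47 and were picked for mention after their values were seen. The call of Dusp5 was lost with array weights (limma adjusted p 0.0605) and when any array but OE 1 was left out. That of Dusp6 was lost with the replicate block (0.0549) and without CTRL 1, CTRL 3, OE 1 or OE 2. Myc at 0.80 (limma adjusted p 0.0551) and Spred2 at −0.24 (0.0634) were not called. Without CTRL 1, Myc was called higher (0.0371) and Spred2 lower (0.0285). Myc was also called higher with the probe set of largest variance (0.0484). On the ribosomal scale 4 of the 16 were called higher, Dusp4, Ier3, Etv5 and Fos, where 7.28% of all genes were, and 2 lower. With analysis of variance 2 of the 16 were called higher, Etv5 and Spred1, where 7.9% of all genes were. Without OE 2 the count was 5.

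**Figure D4:**
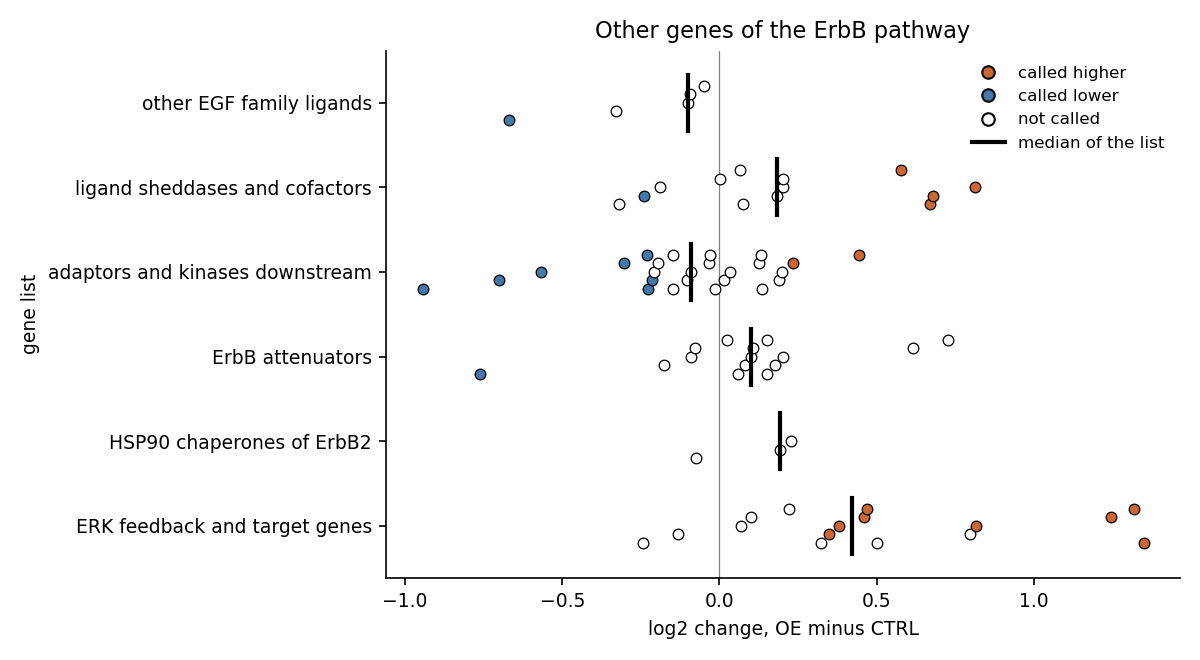
The log2 change, OE minus CTRL, of each measured gene in 6 lists of the ErbB pathway, 1 point per gene, filled where called by limma, with a bar at the median of the list. The ERK feedback and target genes have a median of 0.42 with 8 of 16 called higher, and the adaptors and kinases have a median of −0.09 with 7 of 25 called lower.

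Marker genes of several cell types moved in the same comparison, in which 14.9% of all genes were called higher and 11.8% lower. Of 10 cardiomyocyte markers 7 were called lower and 1 higher, and the mean of the list was 0.16 to 0.26 in the CTRL arrays and −0.21 to −0.16 in the OE arrays. Analysis of variance called 4 of them lower, where 6.18% of all genes were. Of 10 endothelial markers 5 were called lower and none higher, nor was any higher at an unadjusted p under 0.05, with list means of 0.11 to 0.34 and −0.21 to 0.01. The 5 became 0 with analysis of variance, 9 on the ribosomal scale, 3 without CTRL 2, CTRL 3 or OE 3, and 2 without OE 2. Erbb4 and Erbb2, receptors of the cardiomyocyte, and Nrg1, known as an endothelial ligand, were not called in either direction beside these, except on the ribosomal scale. There Erbb4 at −0.27 (limma adjusted p 0.0374) and Nrg1 at −0.20 (0.042) were called lower, as were 50.1% of all genes.

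Of 10 macrophage markers 4 were called higher and none lower, nor was any lower at an unadjusted p under 0.05, with list means of −0.36 to −0.09 in CTRL and 0.05 to 0.37 in OE. The 4 became 1 with analysis of variance, where 7.9% of all genes were called higher, and 1 on the ribosomal scale, where 7.28% were. They also became 1 without CTRL 1, OE 2 or OE 3, and 2 without CTRL 2. Of 9 fibroblast markers 5 were called higher and 1 lower, with list means of −0.64 to −0.21 and 0.19 to 0.38. Analysis of variance called 2 of the 9 higher, where 7.9% of all genes were. Of 8 smooth muscle and pericyte markers 4 were called higher and 3 lower. Of 7 measured markers of Schwann cells and other glia, cells that use ErbB3, 1 was called higher and 3 lower, and the 3 became 1 without CTRL 1, CTRL 3 or OE 1. The single marker called higher in the glial list was not called when any array was left out, and that of the cardiomyocyte list was called in 1 of these 6 fits, without CTRL 2. Of 8 mesothelial and epicardial markers none was called, and of 8 measured lymphoid and mast cell markers 1 was called lower. The part of these shifts in the change of Ereg or of any other gene named above was not tested, and since the values hold no level, which markers are near 0 cannot be seen.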

How the data were processed

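RMA summarization and quantile normalization of the 6 arrays were done by the authors in GeneSpring GX, followed by a baseline step that subtracts from each probe set its median over the samples. The deposited values, −4.29 to 3.54, were taken as log2, which RMA gives, although the log base is not given in the sources used here. Centring removes the level of a gene, so low signals could not be filtered and depth has no meaning beyond the number of arrays.

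Of 45101 probe sets, 932 named several symbols, 9211 had no gene here and 64 were array controls. The remaining 34945 gave 18193 genes, as means of their probe sets. Platform symbols were updated through the RefSeq table by gene ID, and 162 IDs had no entry. Averaging hides probe sets that disagree.

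OE was tested against CTRL in limma 3.58.1 (R 4.3.3; lmFit and eBayes). The tests were two-sided, had no covariates, and used a threshold of 0.05 after Benjamini-Hochberg adjustment over genes, or over probe sets where stated. One-way analysis of variance, named in the methods, was run as an alternative. With 3 arrays against 3 an exact permutation test cannot go below 0.1. The fit was tested on simulated data.

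The members, gene lists and tests were chosen with earlier results of these data known. Named genes are the members, of each pathway list at most 4 called genes with the largest change and at most 2 not called with the smallest adjusted p, the 3 genes nearest to Ereg over the 6 arrays, and Nr2f2. Alternatives were array weights, the replicate number as a block, centring on ribosomal protein genes (42 of 76 listed were measured) or on array medians, omission of probe sets whose names end in _x_at or _s_at, the probe set of largest variance, a 1.2-fold limit and leaving out each array. Figures were drawn with matplotlib 3.10.9.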

Additional observations from a re-analysis of the deposited data

How the results depend on the processing

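With 3 arrays per group, centred values and 1 probe set for Ereg, Nrg1, Erbb2 and Erbb4, small changes cannot be resolved, and filters on signal level and a variance trend with level could not be run. Ereg stayed positive in every setting, from 1.16 to 1.82, and was not called with analysis of variance. Same-numbered arrays had deviations from their group means correlated at 0.0697, −0.117 and 0.0253, and differently numbered arrays at −0.113 to 0.0848. The replicate numbers thus showed no sign of pairing the samples, but 3 arrays per group are too few to exclude it. The main fit called 14 of the 77 measured pathway genes higher and 10 lower, beside 14.9% and 11.8% of all genes. With the replicate number as a block 4048 genes were called in place of 4861. The member calls then stayed at 1 higher and 0 lower, and pathway genes called lower went from 10 to 6.

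Analysis of variance called 2562 of all genes, 7.9% higher and 6.18% lower, and 0 member genes and 0 member probe sets in either direction. It called 5 of the 77 pathway genes higher and 6 lower, and 2 of the 16 ERK genes higher. Limma without adjustment gave 2 member genes at p under 0.05. Ribosomal centring called 10444 of all genes, 7.28% higher and 50.1% lower. It called 5 member genes and 9 member probe sets lower, 7 of the 77 pathway genes higher and 28 lower, and 4 ERK genes higher. It turned Nrg1 to −0.20 and Erbb2 to −0.090. Centring on array medians called 0 member probe sets lower and turned Erbb3 to 0.0071. The probe set of largest variance gave 1 member gene called lower, Nrg2 (−0.34, limma adjusted p 0.0468), and an Erbb3 change of 0.17. With it 24 pathway genes were called higher in place of 14, and 5751 of all genes were called in place of 4861. The 1.2-fold limit left 6 pathway genes lower.

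Leaving out each array called 3073 to 4102 of all genes, lowest without OE 1, 1 member gene higher, 0 member genes lower, 0 to 1 member probe sets lower, 9 to 12 pathway genes higher, lowest without OE 2, 5 to 7 ERK genes higher, and 4 to 7 pathway genes lower, with 6 without CTRL 1, 4 without CTRL 2 or OE 3 and 5 without OE 1 or OE 2. Erbb3 ran from −0.080 to 0.053. The settings for the pathway, ERK and marker lists and for the Nrg2 probe set 1444491_at, and the counts of member and all genes for the most variable probe set, were chosen after seeing the data. The cause of these shifts was not tested.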
